A study of Mus musculus with 22 samples.

Results

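The genes described here encode 27 proteins of the small, 40S subunit of the cytosolic ribosome, from Rpsa and Rps2 to Rps29 and Fau. They were taken by symbol as rows present in both expression tables of the study, and they are 27 of 24819 genes. They lie on 14 chromosomes of the mouse genome. RNA was sequenced from E14 cells, a mouse embryonic stem cell line grown on gelatin with leukemia inhibitory factor, at day 3 after transfection of small interfering RNAs (siRNAs). The groups were siRpl14, siRpl11 and siDux, each given together with siNT, then the pairs siRpl14+siRpl11 and siRpl14+siDux, and siNT alone, which serves as the control. Rpl14 and Rpl11 are genes of the large, 60S subunit, and Dux encodes a transcription factor of the 2-cell embryo, so none of the siRNAs is aimed at a 40S gene. The 22 libraries fall into 3 sets by table and title style. Set 1 holds 2 libraries each of siRpl14, siRpl11, siRpl14+siRpl11 and siNT, and set 2 holds 1 each of siRpl14, siDux, siRpl14+siDux and siNT in the same table. Set 3 is the other table, with 2 each of siRpl14, siDux, siRpl14+siDux and siNT and 1 each of siRpl11 and siRpl14+siRpl11.

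The 40S subunit binds the mRNA, scans to the start codon and reads the codons, while the 60S subunit joins amino acids. Each ribosome carries 1 copy of most of these proteins, and proteins that find no partner are degraded, so the genes of both subunits are usually expressed together. Their mRNAs mostly begin with a C followed by a run of pyrimidines, the 5′ terminal oligopyrimidine (TOP) sequence, through which their translation follows growth signalling by mTOR. In many cell types, a defect in making either subunit frees ribosomal proteins such as Rpl11 to bind Mdm2 and stabilise p53. Mutations in several of these genes, RPS19 first among them, cause Diamond-Blackfan anaemia in humans.

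The bases around the annotated start sites of some of the genes on which the comparisons turn are shown first, because the TOP sequence sits there. Each run is 50 bases of mouse build GRCm38.p6 from RefSeq, from 30 bases before to 20 bases after the annotated start, and capitals mark a run of at least 6 pyrimidines that begins with C.
Rps12: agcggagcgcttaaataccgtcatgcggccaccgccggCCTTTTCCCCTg
Rps15: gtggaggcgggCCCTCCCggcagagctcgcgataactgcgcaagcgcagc
Rps25: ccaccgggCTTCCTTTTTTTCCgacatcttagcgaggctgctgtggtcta
Rps28: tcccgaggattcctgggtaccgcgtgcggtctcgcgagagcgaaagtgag
Rps2: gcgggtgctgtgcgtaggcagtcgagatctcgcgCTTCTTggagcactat
Rpsa: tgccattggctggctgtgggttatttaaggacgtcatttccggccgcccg
These are, in turn, chr10:23787190-23787239 on the minus strand, chr10:80292401-80292450 on the plus strand, chr9:44407684-44407733 on the plus strand, chr17:33824543-33824592 on the minus strand, chr17:24720033-24720082 on the plus strand and chr9:120127736-120127785 on the plus strand. Rps12 and Rps25, which lay on opposite sides of 0 in each knockdown of set 1, both carry such a run. The runs marked here do not begin at the annotated start. They end before it in Rps15 and Rps25 and begin after it in Rps12 and Rps2, so they need not be TOP sequences. RefSeq windows were matched for 23 of the 27 genes, and not for Rps14, Rps20, Rps27a and Rps29. Rps20 and Rps27a, named below, are therefore not shown. Of these 23, 18 (78.3%) held a pyrimidine run of this kind on the sense strand, anywhere in the 50 bases. The same was true of 20 of 32 genes of the 60S subunit (62.5%) and 39.3% of all 27025 genes with a window. The string CCGGAAG, a core recognised by ETS factors, was searched on both strands from 250 bases before to 50 bases after the start. It was present in 9 of 23 genes (39.1%), against 13 of 32 60S genes (40.6%) and 9.93% of all genes. The YY1 string AAGATGGC occurred in 3 of 23 (13.0%), against 3 of 32 60S genes (9.38%) and 3.19% of all genes. These are matches of letters, and an annotated start can differ from the one used in these cells.

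All values are FPKM, fragments scaled to transcript length and library size, as deposited by the authors. The number of reads behind each value is unknown. A value of 0 was listed for 30.8 to 32.1% of genes in set 1, 30.1 to 31.3% in set 2 and 50.5 to 56.2% in set 3, and the tables were handled apart. The siRNA targets were as follows. Rpl14 stood at 893 and 402 FPKM with siRpl14 and 232 and 524 FPKM with siRpl14+siRpl11, against 1550 and 1417 FPKM in siNT of set 1, and Rpl11 at 260 and 113 FPKM with siRpl11 and 98.4 and 249 FPKM with both, against 829 and 661 FPKM in siNT. In sets 2 and 3, Rpl14 stood at 217 to 360 FPKM in the libraries with siRpl14, against 1018 to 1361 FPKM in the others, and Rpl11 at 161 and 199 FPKM in those with siRpl11, against 621 to 907 FPKM. Dux was at 0.0546 FPKM with siDux and 0.168 FPKM with siRpl14+siDux, against 1.495 FPKM with siRpl14 and 0.306 FPKM in siNT of set 2. In set 3 it was listed at 0 in all siDux, siRpl14+siDux and siNT libraries, so its knockdown cannot be read there. The stem cell marker Pou5f1 was at 592 to 1245 FPKM in the 22 libraries, and the summed level of 10 such markers in set 1 was 5622 to 6150 FPKM with siRpl14, 7020 to 7393 with siRpl11 and 6256 to 6360 with both, against 8102 to 9007 FPKM in siNT. The markers did not move one way: with siRpl14, Sall4 rose by 1.00 and Sox2 by 0.34 (limma), while Dppa5a fell by 0.75, Tdgf1 by 0.73 and Klf4 by 0.69. Of 12 fibroblast markers, 2 to 3 averaged at least 1 FPKM in any group, and their summed level in set 1 was 126 to 201 FPKM with siRpl14, 93.6 to 99.1 with siRpl11, 109 to 117 with both and 123 to 132 in siNT, with Dcn and Postn at 0 in all groups. The fibroblast sum was mostly Vim, at 114 and 193 FPKM with siRpl14 and 103 and 113 FPKM in siNT of set 1. Of 4 fibroblast markers tested there, 2 fell and 0 rose with siRpl14 (limma). Thy1 fell by 1.19 (adjusted p = 0.0103) and Pdgfrb, at 3.39 FPKM or less, also by 1.19 (adjusted p = 0.0051). The part of either marker sum in the results below was not tested. Whether replicates came from separate cultures is not stated in the labels, so the p-values below describe variation among these libraries alone, some of which may be technical.

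The 40S genes were abundant transcripts. In siNT of set 1, where FPKM is a level per transcript length, their mean levels ran from 4445 FPKM for Rps14, a platform protein, and 4051 FPKM for Rps12, a protein of the head of the subunit, down to 630 FPKM for Rps20, 226 FPKM for Rps15a and 73.6 FPKM for Rps27. Neighbours in this order were often closer than their replicates: Rps14 was at 5066 and 3824 FPKM and Rps12 at 4460 and 3642 FPKM. Set 3 had another order, with Rps23, a protein of the decoding centre, first at 1361 FPKM and Rps14 at 981 FPKM. Together the 27 genes took 10.3 and 9.88% of all FPKM with siRpl14, 11.4 and 11.2% with siRpl11, 11.2 and 11.2% with both, and 11.2 and 9.47% in siNT of set 1. The siRpl14 libraries lie between the siNT libraries, of which replicate 1 was the higher in most of these genes. In set 2 the share was 10.2% with siRpl14, 9.48% with siDux, 10.1% with siRpl14+siDux and 9.47% in siNT. In set 3 it was 3.24 to 4.37% in all libraries. In bulk RNA, fewer cells of a kind and less RNA per cell cannot be told apart.

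Relative to the large subunit, 40S transcripts stood higher in sets 1 and 2 wherever siRpl14 or siRpl11 was present. The summed FPKM of the 27 genes was divided by that of 45 60S genes other than Rpl14 and Rpl11. In set 1 this ratio was 0.712 and 0.748 with siRpl14, 0.709 and 0.727 with siRpl11, 0.742 and 0.718 with both, and 0.681 and 0.672 in siNT. All 6 knockdown libraries lay above both siNT libraries. In set 2 it was 0.754 with siRpl14 and 0.751 with siRpl14+siDux, against 0.678 with siDux and 0.671 in siNT. In set 3 it was 0.670 and 0.632 with siRpl14, 0.693 and 0.672 with siRpl14+siDux, 0.651 and 0.644 with siDux, 0.640 with siRpl11, 0.648 with both siRNAs, and 0.637 and 0.597 in siNT, so siRpl14 overlapped siNT there. The order in sets 1 and 2 was the same without Rpl3, the 60S gene with the largest fall, where it was 0.722 and 0.755 with siRpl14 against 0.694 and 0.684 in siNT of set 1. It was also the same without the 7 60S genes called in any contrast of set 1, at 0.780 and 0.823 with siRpl14 against 0.747 and 0.742 in siNT. These ratios are descriptions without a test.

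**Figure D1:**
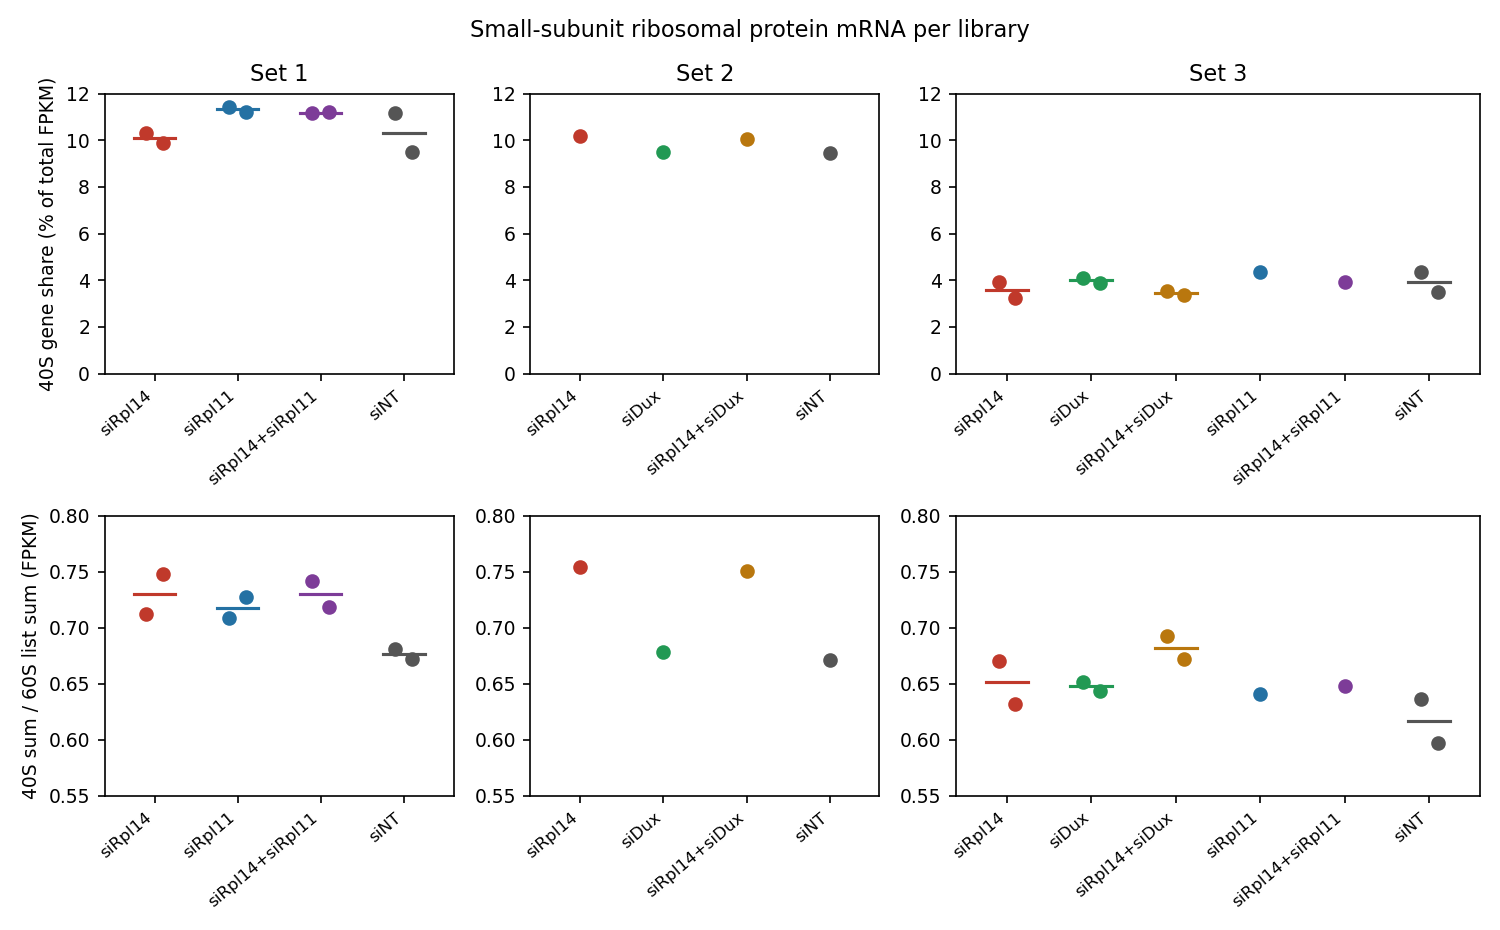
Upper row, the share of all FPKM (percent) taken by the 27 40S genes in each library of the 3 sets; lower row, their summed FPKM over that of 45 60S genes, on an axis that starts at 0.55. Points are libraries and lines are means of 2; in sets 1 and 2 the ratio is 0.709 or more in each library with siRpl14 or siRpl11 and 0.681 or less in the others.

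With siRpl14, none of the 27 genes passed the test against siNT in set 1, where 31.5% of all 12129 genes tested did, 18.1% higher and 13.4% lower (limma on log2(FPKM + 1), Benjamini-Hochberg adjusted p under 0.05 over all genes). At an unadjusted p under 0.05 there were 2, Rps25 and Rps20. The count depended on the scaling, with 6 genes called after quantile normalization, 2 with equal total FPKM and 5 with equal 60S FPKM. All 27 genes passed the filter on low values in both fits. Their median log2 fold change was -0.17, against 0.03 over all genes, and 21 were fitted below 0. That sign depends on the scaling, since the median was 0.05 after quantile normalization and 0.03 after rescaling to equal 60S FPKM, and it was -0.01 without siNT replicate 1. Without siNT replicate 2, 3 genes passed, all lower. The lowest values were those of Rps27, described below, then Rps25 and Rps20. Rps12 was the highest at 0.22 ± 0.12 (SE, adjusted p = 0.202), with 4752 and 4635 FPKM with siRpl14, against 4460 and 3642 FPKM in siNT. Rps15, a head protein whose tail reaches towards the decoding centre, was at 0.17 ± 0.14 and Rps28, also of the head, at 0.16 ± 0.13. Rps19, which is needed for maturation of the head, had 2198 and 2138 FPKM with siRpl14, against 2278 and 1767 FPKM in siNT, at 0.11 ± 0.13. Rps6, the substrate of S6 kinases, had 857 and 743 FPKM with siRpl14, against 1072 and 856 FPKM in siNT, at -0.26 ± 0.16 (adjusted p = 0.225). Rps3, at the mRNA entry channel, was at -0.22 ± 0.15, and Fau, made as a fusion with a ubiquitin-like protein, at -0.23 ± 0.14. Rps26, at the mRNA exit channel, was near 0 at 0.03 ± 0.16.

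With siRpl11, 3 of 27 genes rose in set 1, where 16% of all genes rose and 28.4% fell (44.3% in either direction). The members' median was 0.12, against -0.11 over all genes. Rps12 had 5442 and 5453 FPKM with siRpl11, against 4460 and 3642 FPKM in siNT, a change of 0.43 ± 0.12 (SE, limma adjusted p = 0.0248). Rps15 had 3302 and 3327 FPKM with siRpl11, against 2818 and 2150 FPKM in siNT, at 0.43 ± 0.14 (adjusted p = 0.0375). Both siRpl11 libraries lay above both siNT libraries for these genes. Rps27a, which encodes ubiquitin fused to a protein of the head, had 2555 and 2528 FPKM with siRpl11, against 2180 and 1751 FPKM in siNT, at 0.38 ± 0.13 (adjusted p = 0.0450). In Drosophila, RpS12 takes part in the competition of ribosomal protein mutant cells with their neighbours. All 3 called genes belong to 12 proteins of the head, of which 4 had an unadjusted p under 0.05. Of 15 proteins of the body and platform, 0 passed and 3 had an unadjusted p under 0.05. The medians were close, at 0.13 for the head and 0.12 for the body and platform. The lowest values, of Rps20 (-0.40) and Rps25 (-0.38), were also of head proteins. The difference between the groups was not tested. The calls rest on few libraries. The call of Rps12 was lost without siNT replicate 2 (adjusted p = 0.0600) or either siRpl11 library (0.0897 and 0.126), and that of Rps15 also without either siRpl14+siRpl11 library (0.0607 and 0.0602). That of Rps27a was lost in 7 of 8 omissions (adjusted p 0.0508 to 0.164) and held without siNT replicate 1. Without siNT replicate 1, 8 genes passed, and without siNT replicate 2, 1 did, which was lower.

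With both siRNAs, Rps27a rose and Rps20 fell against siNT in set 1, where 16.6% of all genes rose and 25% fell (41.6% in either direction). Rps27a had 2586 and 2579 FPKM with siRpl14+siRpl11, against 2180 and 1751 FPKM in siNT, at 0.40 ± 0.13 (limma adjusted p = 0.0388). Rps20 had 388 and 474 FPKM with siRpl14+siRpl11, against 708 and 553 FPKM in siNT, at -0.54 ± 0.18 (adjusted p = 0.0454). Its protein lies in the head beside Rps3. The groups did not overlap for either gene. Rps12 was at 0.35 (adjusted p = 0.0534) and Rps15 at 0.34 (adjusted p = 0.0791). The median of the 27 genes was 0.03, against -0.07 over all genes. The call of Rps27a was lost without siNT replicate 2 (adjusted p = 0.127), either siRpl11 library (0.0624 and 0.0630) or either library with both siRNAs (0.170 and 0.119). That of Rps20 was lost without siNT replicate 1 (0.241), siNT replicate 2 (0.0565) or siRpl14+siRpl11 replicate 1 (0.241), and 8 genes passed without siNT replicate 1. These 3 contrasts share the siNT libraries. The change with both siRNAs beyond the sum of the single ones, tested after seeing the data, was called for 0 of the 27 genes (lowest adjusted p = 0.276, limma; 0 at an unadjusted p under 0.05), against 4.49% of all genes.

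**Figure D2:**
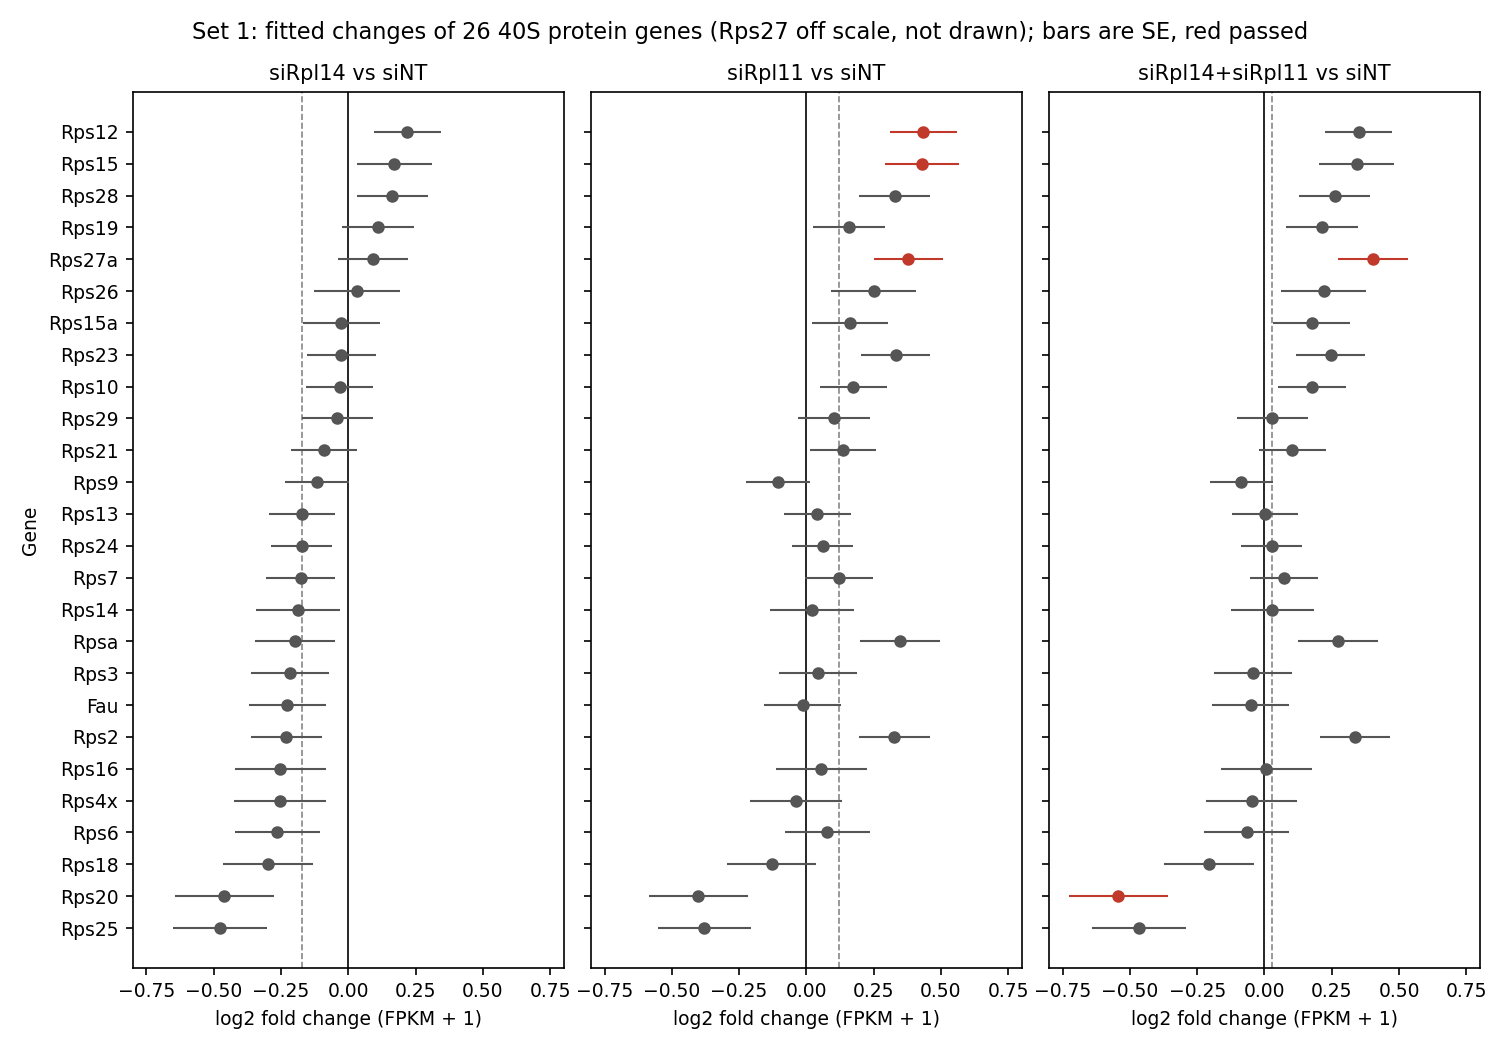
Fitted log2 fold changes (FPKM + 1) of 26 40S genes against siNT in set 1, one panel per knockdown, in the order of the siRpl14 panel. Bars are SE, red marks an adjusted p under 0.05 and the dashed line is the median of all 27 genes. Rps12 and Rps15 are fitted above 0 and Rps20 and Rps25 below 0 in each panel.

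The siRpl14 and siRpl11 knockdowns differed in Rps2 and Rpsa. They also differed in what was left of their targets in set 1. Rpl14 was at 60.2 and 27.1% of the siNT mean with siRpl14, and Rpl11 at 34.9 and 15.2% with siRpl11. The part of this in the values below was not tested. Rps2 encodes a protein at the mRNA entry channel, and Rpsa encodes a protein of the subunit surface that is also known as a laminin receptor. Rps2 had 3209 and 2876 FPKM with siRpl14, against 4194 and 4766 FPKM with siRpl11. The difference was -0.56 ± 0.13 (limma adjusted p = 0.0305). Rpsa had 1944 and 1829 FPKM with siRpl14, against 2824 and 2691 FPKM with siRpl11, at -0.55 ± 0.15 (adjusted p = 0.0476). These 2 of 27 genes passed where 12% of all genes were higher with siRpl14 and 1.45% lower (13.4% in either direction). All 27 genes were fitted below 0, with a median of -0.22 against 0.12 over all genes, although after rescaling to equal 60S FPKM the median was 0.06. Adding siRpl11 to siRpl14 gave 4672 and 4338 FPKM of Rps2, against the 3209 and 2876 FPKM with siRpl14 alone. That rise was 0.57 ± 0.13 (limma adjusted p = 0.0416), the only call among the 27 genes where 0.627% of all genes rose and 6.61% fell (7.24% in all). Rpsa had 2606 and 2630 FPKM with both, at 0.47 ± 0.15 (adjusted p = 0.102). The Rps2 calls were each lost in 6 of 8 single-library omissions (adjusted p 0.0630 to 0.275 with siRpl11 added to siRpl14, and 0.0532 to 0.214 for siRpl14 against siRpl11), and so was the Rpsa call (0.0741 to 0.173). They held without either siNT library, and none passed after quantile normalization.

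Libraries that received siRpl11 stood above those that did not in both tables for 3 genes, Rps2, Rpsa and Rps23. In set 3, Rps2 was at 1037 FPKM with siRpl11 and 917 FPKM with siRpl14+siRpl11, and at 406 to 693 FPKM in the 8 libraries without siRpl11. Rpsa was at 243 and 181 FPKM with siRpl11 and with both, against 114 to 179 FPKM in the others, so the nearest values almost touch. Rps23 was at 2262 and 1981 FPKM, against 1190 to 1861 FPKM. In set 1, Rps23 had 3647 and 3679 FPKM with siRpl11 and 3460 and 3444 FPKM with both, against 2902 and 2813 FPKM with siRpl14 and 3265 and 2594 FPKM in siNT. Among all genes with a mean of at least 1 FPKM in both sets, 0.987% were higher in all 6 libraries with siRpl11 than in the 12 without, and 2.15% were lower, against 3 and 0 of 27 here. None of the 27 genes separated the libraries this way once FPKM was taken over the 40S sum of each library, where 0.188% of all genes were higher and 3.94% lower. This split was made after seeing the data and has no test.

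**Figure D3:**
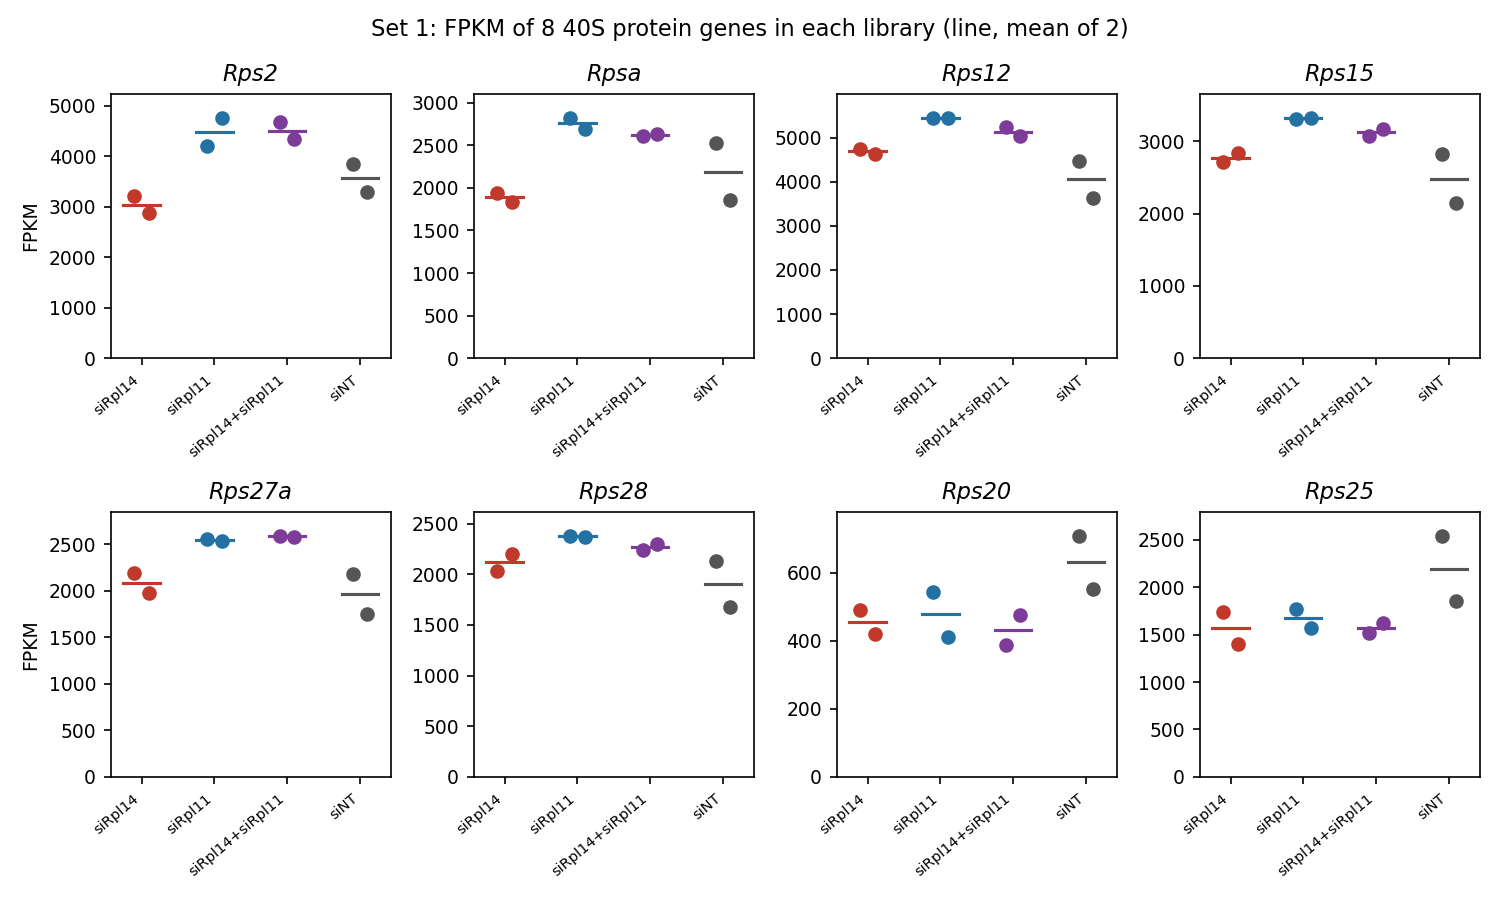
FPKM of 8 40S genes in each library of set 1, with siRpl14, siRpl11, siRpl14+siRpl11 and siNT from left to right; points are libraries and lines are means of 2. Rps2 and Rpsa are lowest with siRpl14 and highest with siRpl11 present, whereas Rps20 and Rps25 are lower in each knockdown library than in either siNT library.

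Rps25 and Rps20 were lower in each of the 14 libraries with siRpl14 or siRpl11 than in each of the 8 libraries with neither, within all 3 sets. Rps25 lies in the head and is needed for initiation on several viral internal ribosome entry sites. Rps25 had 1740 and 1399 FPKM with siRpl14, 1771 and 1574 FPKM with siRpl11 and 1519 and 1622 FPKM with both, against 2540 and 1854 FPKM in siNT of set 1. In set 2 it had 1484 FPKM with siRpl14 and 1510 FPKM with siRpl14+siDux, against 1874 FPKM with siDux and 1984 FPKM in siNT. Set 3 had 713 and 555 FPKM with siRpl14, 634 and 555 FPKM with siRpl14+siDux, 763 FPKM with siRpl11 and 669 FPKM with siRpl14+siRpl11, against 1082 and 954 FPKM with siDux and 1169 and 892 FPKM in siNT. Libraries with siDux alone thus sat with siNT. Rps20 had 490 and 421 FPKM with siRpl14 and 544 and 412 FPKM with siRpl11, against 708 and 553 FPKM in siNT of set 1. In set 2 Rps20 had 405 FPKM with siRpl14 and 419 FPKM with siRpl14+siDux, against 463 FPKM with siDux and 514 FPKM in siNT. In set 3 it had 97.2 to 132 FPKM in the 6 libraries with siRpl14 or siRpl11, against 143 to 208 FPKM in the 4 others. Of all genes with a mean of at least 1 FPKM in each set, 2.93% were lower in this pattern and 1.56% higher, against 2 and 0 of the 27 genes. Over the 40S sum of each library the same 2 genes separated, where 1.85% of all genes were lower and 1.51% higher. The split was made after seeing the data.

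In the main fit of each single set, with values as deposited, Rps25 missed the threshold. Its fitted change was -0.48 ± 0.17 with siRpl14 (limma adjusted p = 0.0688), -0.38 ± 0.17 with siRpl11 (adjusted p = 0.108) and -0.47 ± 0.17 with both (adjusted p = 0.0614) in set 1. In set 3 it was -0.70 ± 0.19 with siRpl14 (adjusted p = 0.197) and -0.78 ± 0.19 with siRpl14+siDux (adjusted p = 0.109). With siDux alone the value was -0.01 ± 0.19. With siRpl14 in set 1, Rps25 passed after quantile normalization (adjusted p = 0.0275) and with equal total FPKM (adjusted p = 0.0478). Rps20 with siRpl14 was at -0.46 ± 0.18 (adjusted p = 0.0887) in set 1 and -0.55 ± 0.23 (adjusted p = 0.377) in set 3. When sets 1 and 2 were fitted together with the set as a term, siRpl14 against siNT called 3 of the 27 genes, where 47.7% of all genes passed. Rps25 (adjusted p = 0.0193) and Rps20 (adjusted p = 0.0345) were lower and Rps12 (adjusted p = 0.0444) higher.

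The sums of both subunits were higher in siNT replicate 1, at 11.2% of all FPKM for the 40S and 16.4% for the 60S genes, than in siNT replicate 2, at 9.47 and 14.1%. The fit of set 1 was therefore repeated after rescaling each library to the same summed FPKM of the 45 60S genes, a setting chosen after seeing the data. It shifted the median of all genes from 0.03 to 0.22 in the siRpl14 contrast and from -0.11 to -0.17 in that of siRpl11. The 60S genes were themselves lower with siRpl14, with a median of -0.23 as deposited. The scaling therefore raised all 27 genes in that contrast. Their direction after it is not separate from the ratio of 40S to 60S sums above. It also took out variation that both sums share, as between the siNT libraries. The SE went from 0.1245 to 0.0895 for Rps12 and from 0.167 to 0.0946 for Rps18, but from 0.1426 to 0.17 for Rps15a. The knockdown of Rpl14 itself no longer passed with siRpl14 (limma adjusted p = 0.197). The adjusted p-values after this scaling are thus not separate support for the calls. With siRpl14, 5 of the 27 genes then passed and all were higher, where 19.5% of all genes were higher and 6.13% lower (25.6% in all): Rps12 at 0.42 (limma adjusted p = 0.00122), Rps15 at 0.38 (adjusted p = 0.00876), Rps28 at 0.37 (adjusted p = 0.0162), Rps19 at 0.32 (adjusted p = 0.0304) and Rps27a at 0.30 (adjusted p = 0.0330). The count of 5 of 27 is close to the share of all genes that were higher. All 5 are proteins of the head, as are Rps25 and Rps20, which were not higher, and head against body was not tested. Rps25 was at -0.27 (adjusted p = 0.0684) and Rps20 at -0.26 (adjusted p = 0.209). With siRpl11, Rps12, Rps15, Rps27a, Rps23 and Rpsa were higher and Rps25 (-0.45, adjusted p = 0.00355) and Rps20 (-0.47, adjusted p = 0.0208) lower, where 6.43% of all genes were higher and 23.2% lower (29.6% in all). With both siRNAs, Rps27a, Rps12, Rps15, Rps2 and Rpsa were higher and Rps20 and Rps25 lower, where 8.93% of all genes were higher and 17.5% lower (26.4% in all). Rps2 still passed between siRpl14 and siRpl11, at -0.29 instead of -0.56 (adjusted p = 0.0420), where 21.4% of all genes were higher and 0.23% lower (21.7% in all), and between both siRNAs and siRpl14 at 0.36 instead of 0.57 (adjusted p = 0.0178), where 0.238% were higher and 10.8% lower (11% in all). Rpsa passed in neither.

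The make-up of the 40S pool moved in a similar way. As a percentage of the summed FPKM of the 27 genes, Rps12 made up 8.30 and 8.80% with siRpl14, 8.20 and 8.52% with siRpl11 and 8.36 and 7.89% with both, against 6.73 and 7.02% in siNT of set 1. In set 2 it made up 9.09% with siRpl14 and 8.16% with siRpl14+siDux, against 7.55% with siDux and 7.35% in siNT. In set 3 Rps12 overlapped, with 4.16 and 3.97% with siRpl14 against 4.42 and 3.86% in siNT. Rps15 made up 5.14% with siRpl14 and 5.18% with siRpl14+siDux, against 3.84% with siDux and 3.47% in siNT of set 2, and 6.33 and 6.92% with siRpl14 against 4.74 and 5.44% in siNT of set 3. The siRpl14+siDux libraries of set 3 were at 4.46 and 7.06%, on either side of siNT. Rps25 made up 4.75 and 4.45% with siRpl14, against 6.91 and 6.70% in siNT of set 3. By the mean of siRpl14 against that of siNT, 8 of the 27 genes had a larger share in all 3 sets (Rps10, Rps15, Rps15a, Rps19, Rps23, Rps26, Rps27a and Rps28), 10 a smaller one (Fau, Rps2, Rps3, Rps6, Rps7, Rps16, Rps18, Rps20, Rps25 and Rps27), and 9 were mixed. These counts have no all-gene figure beside them and include differences close to 0. In set 2, with 1 library a group, the log2 ratio was 0.003 for Rps27a, 0.007 for Rps15a and -0.012 for Rps2. In set 3 several of these genes overlapped siNT, among them Rps15a, Rps28, Rps2 and Rps6, and the Rps27 row is uncertain, as described below. Shares of one sum are tied to each other, so a rise of some forces a fall of others.

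**Figure D4:**
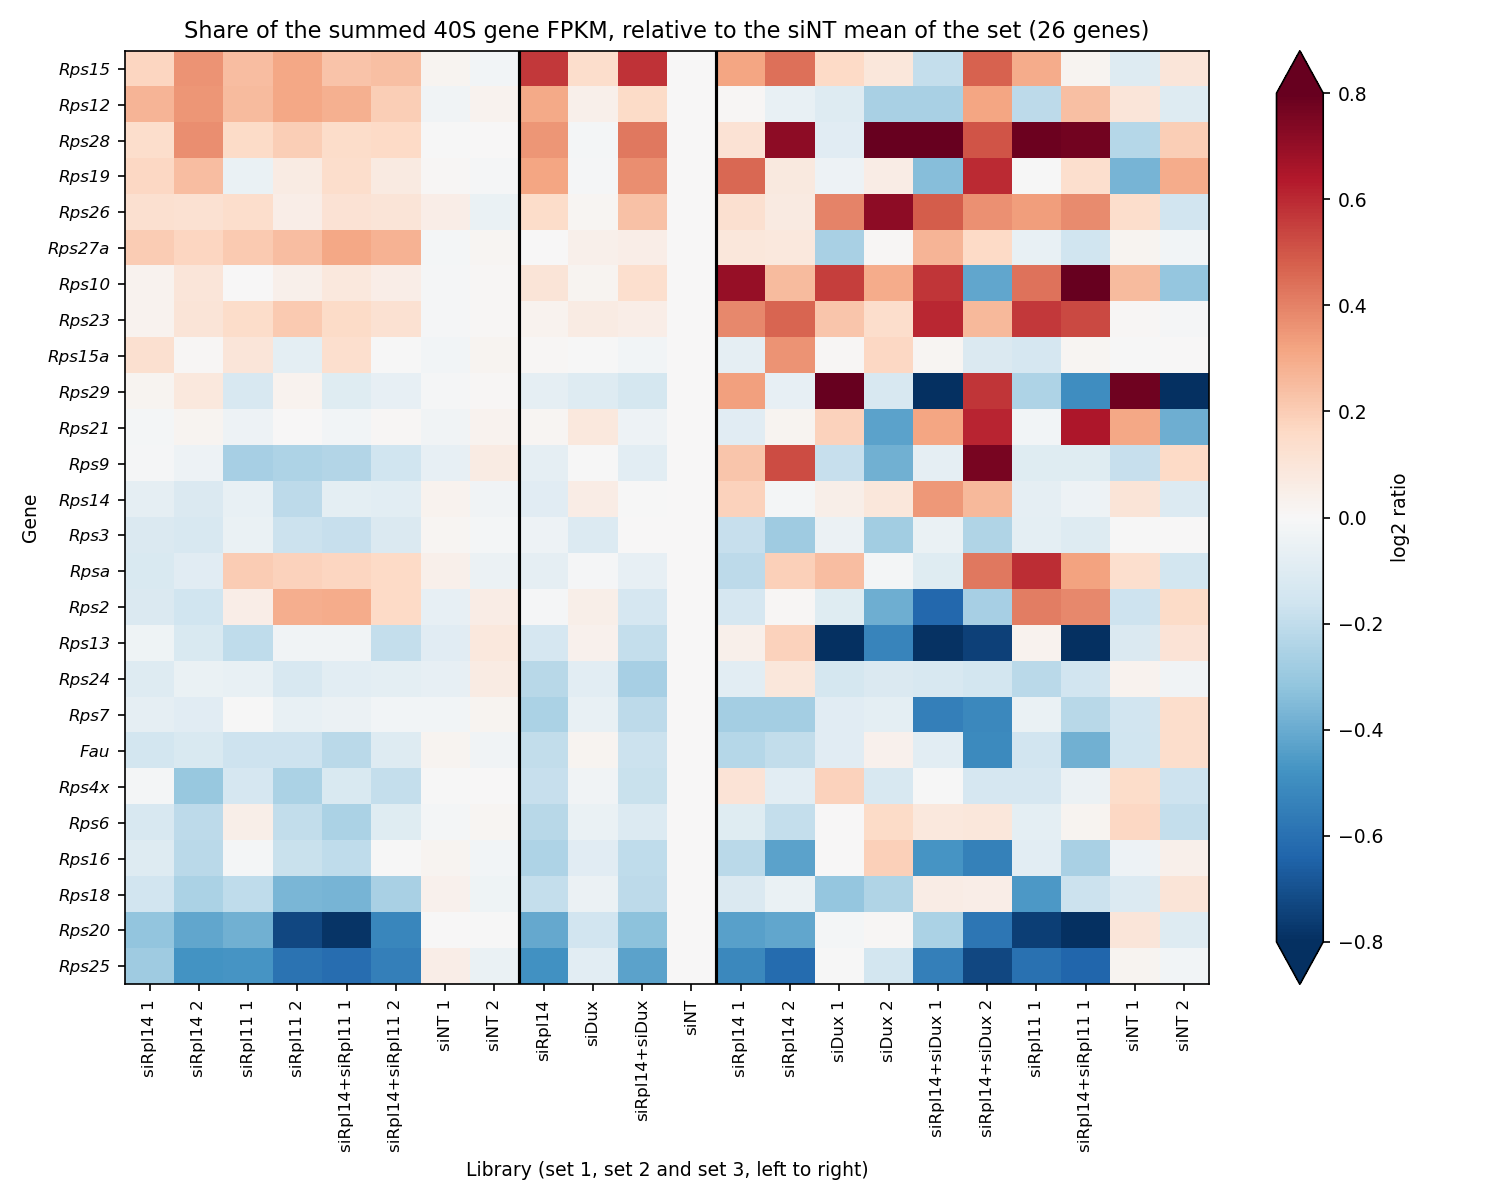
Log2 ratio of each gene's share of the summed 40S FPKM to its siNT mean, for 26 genes (rows) and 22 libraries (columns, sets 1 to 3 between the black lines); red is a larger and blue a smaller share. Rps25 and Rps20 in the bottom rows are blue in the libraries with siRpl14 or siRpl11 of all 3 sets, and the other rows are noisier in set 3.

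In set 3 the test called 0 of the 27 genes in any contrast. For siRpl14 this compares with 0.66% of all genes, with 4 of the 27 at an unadjusted p under 0.05 and a median of -0.13. For siDux it compares with 0.00758% of all genes (2 at an unadjusted p under 0.05, median 0.07), for siRpl14+siDux against siNT with 1.02% (8, median -0.11) and against siRpl14 with 0.0152% (1, median -0.09). In these contrasts 1 gene, Rps27, passed with siRpl14+siDux against siNT when siRpl14 replicate 1 (adjusted p = 0.0323) or replicate 2 (adjusted p = 0.0414) was left out of the limma fit. Rps13, a protein of the body bound early in assembly, had 105 and 147 FPKM with siDux and 108 and 110 FPKM with siRpl14+siDux, against 210 and 194 FPKM with siRpl14 and 213 and 196 FPKM in siNT. The siDux libraries lay below the others in set 3, except that siRpl14+siRpl11 was at 118 FPKM. The fitted values were -0.71 ± 0.20 with siDux (limma adjusted p = 0.743) and -0.90 ± 0.20 with siRpl14+siDux (adjusted p = 0.0939). Set 2 did not show this, with 1105 FPKM with siDux, 963 FPKM with siRpl14+siDux and 1022 FPKM with siRpl14, against 1075 FPKM in siNT. Rps7, a protein whose human counterpart binds MDM2, had 258 and 263 FPKM with siRpl14+siDux, against 421 and 407 FPKM in siNT, at -0.67 ± 0.15 (adjusted p = 0.0939). Rps29 shows how far replicates can part in this set, with 292 and 38.6 FPKM in siNT.

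The Rps27 row is uncertain. Its coding sequence of 255 bases is identical to that of Rps27rt, a second locus in the table (100% identity), so reads within it could come from either; untranslated regions were not compared. In sets 1 and 2 Rps27 held 0.151 to 5.16% of the summed FPKM of the pair, and in 8 of 10 libraries of set 3 it held 49.1 to 50.5%. Rps27 alone had 6.42 and 5.74 FPKM with siRpl14, against 139.9 and 7.34 FPKM in siNT of set 1, a fit of -2.28 ± 1.44 (limma adjusted p = 0.281). The sum of both rows, taken after seeing the data, was 2873 and 2817 FPKM with siRpl14, 3058 and 2697 FPKM with siRpl11 and 2941 and 2702 FPKM with both, against 3196 and 2585 FPKM in siNT. Its fitted change was -0.01 ± 0.14 with siRpl14. In set 3 the sum was far lower, at 14.0 and 16.6 FPKM with siRpl14+siDux and 40.1 and 72.1 FPKM with siRpl14, against 73.0 and 93.5 FPKM in siNT. The fall with siRpl14+siDux was -2.36 ± 0.31 (adjusted p = 0.0155). Set 2 had 3019 FPKM with siRpl14+siDux and 2952 FPKM with siRpl14, against 2538 FPKM in siNT. Other 40S genes also have processed copies in the genome, and no source used here says how the authors' counting assigned reads shared with them.

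Rps27l, a paralog of Rps27 and a known p53 target, rose in each knockdown of set 1. Its coding sequence can be told from that of Rps27, with 61 differences in 255 bases (76.1% identity) and no identical run longer than 11 bases. Bases 61 to 150 of the 2 coding sequences, from GENCODE transcripts of GRCm38, show this, with capitals at the bases that differ.
Rps27: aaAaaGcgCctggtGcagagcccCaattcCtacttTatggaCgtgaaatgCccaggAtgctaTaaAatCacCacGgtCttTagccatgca
Rps27l: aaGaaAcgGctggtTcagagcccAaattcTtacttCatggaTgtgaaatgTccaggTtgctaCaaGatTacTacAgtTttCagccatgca
Rps27l had 890 and 994 FPKM with siRpl14, 780 and 805 FPKM with siRpl11 and 901 and 827 FPKM with both, against 662 and 505 FPKM in siNT of set 1. All 6 knockdown libraries lay above siNT. The rises were 0.70 ± 0.14 (limma adjusted p = 0.0113), 0.45 ± 0.14 (adjusted p = 0.0340) and 0.58 ± 0.14 (adjusted p = 0.0160). In set 2 it had 1127 FPKM with siRpl14 and 1038 FPKM with siRpl14+siDux, against 694 FPKM with siDux and 665 FPKM in siNT. In set 3 it had 431 and 308 FPKM with siRpl14, 457 and 306 FPKM with siRpl14+siDux, 250 and 308 FPKM with siDux, 399 FPKM with siRpl11 and 486 FPKM with both, against 292 and 231 FPKM in siNT. The set 3 fits did not pass, at 0.485 ± 0.26 with siRpl14 (limma adjusted p = 0.521) and 0.52 ± 0.26 with siRpl14+siDux (adjusted p = 0.403). In set 1 Rps4l, a paralog of Rps4x, rose by 0.45 with siRpl11 (adjusted p = 0.0170) and by 0.35 with both siRNAs (adjusted p = 0.0405). It was at 0.34 with siRpl14 (adjusted p = 0.0540). With equal 60S FPKM the first and second of these calls were lost (adjusted p = 0.0917 and 0.124) and siRpl14 passed (adjusted p = 0.0211). In set 3 Rps4l had 91.6 and 70.3 FPKM with siRpl14, against 76.6 and 103 FPKM in siNT, a value of -0.15 ± 0.26 that did not pass (adjusted p = 0.872).

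**Figure D5:**
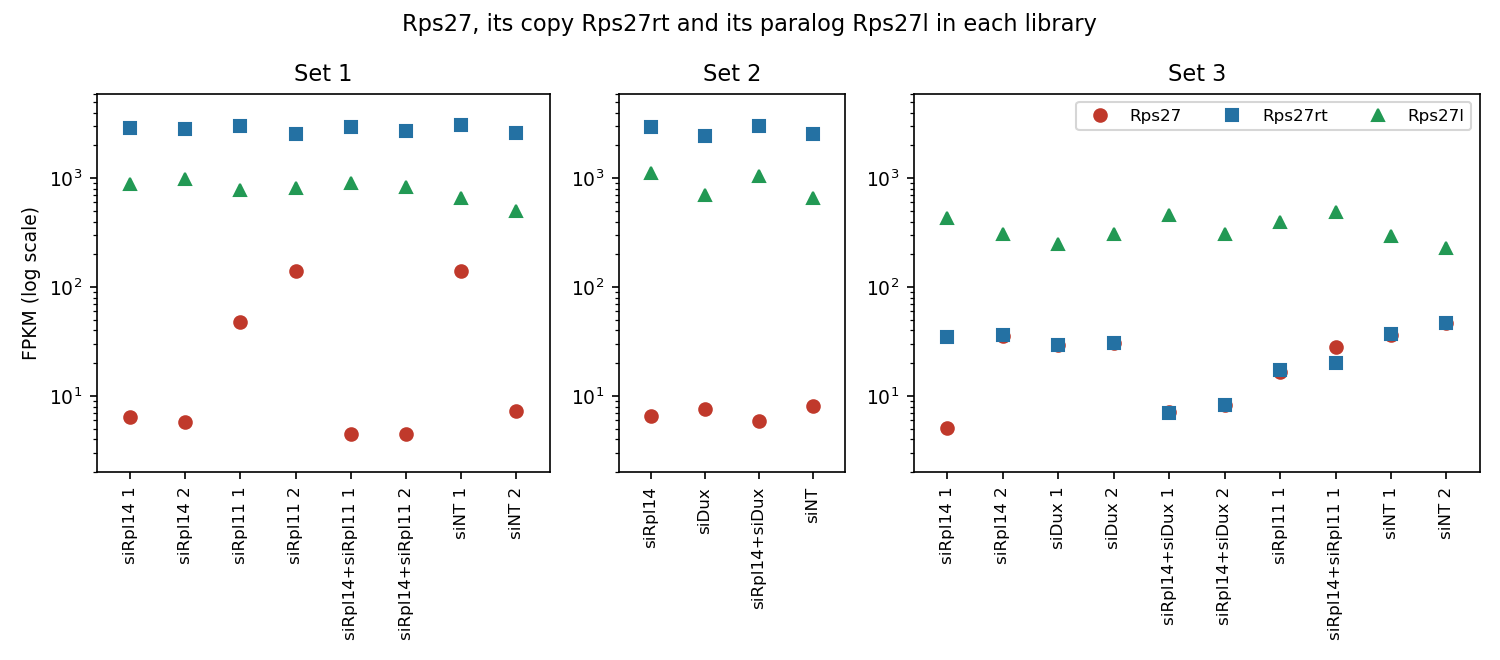
FPKM on a log axis of Rps27 (circles), Rps27rt (squares) and the paralog Rps27l (triangles) in each library of the 3 sets. Rps27 and Rps27rt have the same coding sequence. Rps27 takes at most 5.16% of the summed FPKM of Rps27 and Rps27rt in sets 1 and 2 and coincides with Rps27rt in most libraries of set 3, while Rps27l is higher in each knockdown library of set 1 than in siNT.

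Related gene lists of set 1 are given beside the all-gene shares, which were 18.1% higher and 13.4% lower with siRpl14, 16% and 28.4% with siRpl11, and 16.6% and 25% with both. No test of a difference between lists was run. Of 45 60S genes, 2 fell with siRpl14, Rpl3 by 0.96 ± 0.28 (limma adjusted p = 0.0351) and Rpl22 by 0.50 ± 0.16 (adjusted p = 0.0430), and the median was -0.23, beside -0.17 for the 40S genes. With siRpl11, Rpl30 and Rpl23a rose and Rpl3 fell, with a median of 0.11, beside 0.12 for the 40S genes. Of 17 other genes with TOP mRNAs that were tested, Eif3e rose by 0.78 and Hnrnpa1 by 0.48 with siRpl14 while Eif4b fell by 0.35, and Eif3e, Npm1, Hnrnpa1 and Nap1l1 rose with siRpl11. Of 40 tested genes for 40S assembly, which process the 18S rRNA and load these proteins, 21 rose and 0 fell with siRpl14 (28 at an unadjusted p under 0.05, median 0.35), 31 rose and 2 fell with siRpl11 (median 0.56), and 27 rose and 1 fell with both (median 0.53). Rrp12, which takes part in export of the subunit, rose by 0.83 with siRpl14 and by 1.06 with siRpl11, and Nop58, a snoRNP core protein, by 0.94 and 1.47. Under the other 4 scalings 17 to 21 of the 40 assembly genes rose with siRpl14 and 17 to 33 with siRpl11.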

How the data were processed

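Stranded mRNA libraries of 22 samples were sequenced. Reads were aligned with STAR and FPKM values made with Cuffnorm on build mm9, per the submitters' processing notes. Versions, annotation and strand setting: not given in the sources used here. Both deposited tables, 2 in all, hold FPKM values, and since they may have been normalized separately, tests were made within a table. Sets 1 and 3 were fitted with limma 3.58.1 (R 4.3.3, statmod 1.5.0; trended, robust eBayes) on log2(FPKM + 1), after dropping genes that reached 1 FPKM in fewer than 2 libraries, with Benjamini-Hochberg adjustment over all genes at 0.05. The alternatives were another pseudocount, other filters and scalings, a replicate block and leaving out each library. Fold changes on this scale understate those of low genes. The lone siRpl11 and siRpl14+siRpl11 libraries of set 3 and the 4 libraries of set 2 have no replicates; they were described only, except that siRpl14 of sets 1 and 2 was also fitted jointly. Shares, ratios, letters and figures were computed with Python 3.11.15. The fit was tested on simulated data for siRpl14 against siNT of set 1 (11761 genes). Of genes changed by 1 on the log2 scale 71.4% were called, and of those changed by 2, 93.9%. There were 12 false calls. Noise was drawn separately for each gene, without shifts shared by a library. Changes below 1, such as those of the 27 genes other than Rps27 in set 1, were not simulated, so their recovery is unknown. The 27 genes and the lists were chosen with earlier results of these data known. Named genes were those called, the 3 highest and 3 lowest of each contrast, the 3 highest and lowest by level, and 9 chosen by role; up to 4 per list were to be named by lowest adjusted p. Rps13, Rps7, Rps23 and Rps29 were also named after their values were seen where they fell outside that rule. Interaction, 60S rescaling, library splits, ratios without some genes and the Rps27 sum were added after seeing the data. Positions and sequences come from GRCm38 references, not from mm9, and no coordinate was converted.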

Additional observations from a re-analysis of the deposited data

How the results depend on the processing

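Set 1 counts of called 40S genes (limma, adjusted p) changed with the scaling in ways whose cause was not tested. With siRpl14 against siNT, where 0 passed as deposited, 6 passed after quantile normalization, 2 after rescaling to equal total FPKM, 5 to equal 60S FPKM (added after seeing the data) and 3 in the joint fit with set 2; their median of -0.17 became 0.047 under quantile normalization and 0.031 with equal 60S FPKM. With siRpl11 (3 passed, median 0.12), 1 passed with no filter on low values, 9 under quantile normalization, 7 with median-ratio rescaling (median 0.29), 8 with equal totals and 7 with equal 60S FPKM. With both against siNT (2 passed), the counts were 0 with no filter, 8, 4, 6 and 7. For both against siRpl14 (1 passed, median 0.19), 0 passed with no filter, a filter of 5 FPKM or quantile normalization, and the median was -0.0071 under quantile normalization, 0.32 with median-ratio rescaling and -0.015 with equal 60S FPKM. For siRpl14 against siRpl11 (2 passed, median -0.22), 1 passed with no filter, the filter of 5 FPKM or equal 60S FPKM and 0 under quantile normalization, with medians of -0.0023, -0.41 and 0.055 under quantile, median-ratio and 60S scaling. In set 3 the median with equal 60S FPKM was 0.083 with siRpl14 and 0.18 with siRpl14+siDux. The 3 genes that separated siRpl11 libraries became 0 over the 40S sum.

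Single values changed sign for Rps18 with siRpl11 (0.040, median-ratio). Between both siRNAs and siRpl14 they did for Rps25 (-0.13 quantile, -0.047 equal totals, -0.19 equal 60S) and Rps20 (0.051, median-ratio). Between siRpl14 and siRpl11 they did under quantile, total and 60S scaling for Rps20 (0.081, 0.022, 0.21), Rps19 (0.25, 0.034, 0.22) and Rps9 (0.14, 0.068, 0.26). Over all genes, the siRpl11 calls were 1938 higher and 3439 lower as deposited, 2552 and 2399 under quantile normalization and 3025 and 2409 with median-ratio rescaling. Those of siRpl14 were 2191 and 1631 as deposited and 2377 and 746 with equal 60S FPKM.

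Leaving out 1 library at a time, members called ranged over 0 to 3 with siRpl14, 0 to 8 with siRpl11, 0 to 8 with both, 0 to 2 for both against siRpl14, 0 to 4 for siRpl14 against siRpl11, and 0 to 1 with siRpl14+siDux in set 3. Medians ranged from -0.28 to -0.0068 with siRpl14, -0.049 to 0.27 with siRpl11 and -0.083 to 0.23 with both in set 1, and in set 3 from -0.34 to 0.11 with siRpl14, -0.19 to 0.27 with siDux, -0.39 to 0.072 with siRpl14+siDux against siNT and -0.12 to 0.095 against siRpl14. Single genes that crossed 0 were, in set 1, Rps28 (-0.0099 to 0.34) and Rps15 (-0.024 to 0.37) with siRpl14, Rps18 (-0.34 to 0.082) and Rps27 (-0.77 to 3.31) with siRpl11, Rps20 (-0.23 to 0.062) and Rps25 (-0.15 to 0.17) for both against siRpl14, and Rps20 (-0.26 to 0.14) and Rps9 (-0.089 to 0.063) for siRpl14 against siRpl11. In set 3 they were Rps10 (-0.081 to 0.82) and Rps29 (-0.95 to 1.94) with siRpl14, Rps29 (-0.43 to 2.46) with siDux, Rps21 (-0.16 to 0.88) with siRpl14+siDux, and Rps27 (-2.09 to 0.52) and Rps29 (-2.10 to 0.42) for siRpl14+siDux against siRpl14. In these omissions a lone library was assumed to vary like the other groups.

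In set 1, differences between replicates 1 and 2 correlated positively among siRpl14, siRpl11 and siNT (r = 0.169 to 0.466) and negatively between each of these and siRpl14+siRpl11 (r = -0.451 to -0.222); in set 3 r was 0.038 to 0.061. Not all pairs of groups agreed in sign, and the labels give the numbers no shared source, so they were not taken to pair the samples. With the replicate block, 1 gene, Rps25, was called with siRpl14 in set 1 (adjusted p = 0.049), 0 for both siRNAs against siRpl14, and 1 each with siRpl14 and siRpl14+siDux in set 3. An alternative without mitochondrial genes was not run, as 0 such genes are in the tables. With 2 libraries a group and unknown depth, a missed threshold does not show that a gene did not differ.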

Other observations

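Of the 45 60S genes, Rpl3 and Rpl10a were lower in each of the 14 libraries with siRpl14 or siRpl11 than in each of the 8 others of their set, as were Rps20 and Rps25. Taken over the summed FPKM of the 40S genes, Rpl4, Rpl8, Rpl10 and Rpl22 did so too. Rpl23a was the 1 60S gene that stood higher in each of the 6 libraries with siRpl11 than in the 12 without, beside Rps2, Rpsa and Rps23. These splits were made after seeing the data and have no test.

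In set 3, 0 of 40 tested assembly genes passed with siRpl14 (limma; 9 at an unadjusted p under 0.05, lowest adjusted p = 0.145, median 0.12) and 0 with siDux (0 at that p, median 0.15). For the 45 60S genes, 0 passed with siRpl14+siDux (10 at an unadjusted p under 0.05, median -0.25). The CCGGAAG string lies near the start of Rpsa, Rps2, Rps6, Rps7, Rps10, Rps18, Rps21, Rps25 and Rps26, of which 8 were fitted below 0 with siRpl14 in set 1 and Rps26 above it at 0.03 ± 0.16, as 21 of the 27 genes were below 0.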
